A study of Homo sapiens with 6 samples.

Results

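The collagen chain genes are the 44 gene rows, of 42540 in the count table, whose symbol has the form COL, a number, A and a number. Each of the 44 symbols stood on 1 row. They were read in 6 RNA-seq libraries of MiaPaCa2 cells, a human pancreatic ductal adenocarcinoma (PDAC) cell line with a mesenchymal phenotype, to follow the response of the transcriptome to depletion of PPP2R1A, the scaffold subunit of the phosphatase PP2A. All 6 libraries came from MiaPaCa2 cells that carry CasRx, a Cas13d enzyme that cuts RNA and that was brought in on a transposon. The 3 control libraries (labelled ctrl, genotype WT) came from cells with CasRx and no guide RNA, and the 3 knockdown libraries (labelled PPP2R1A_KD, genotype KD) from cells that also carried a guide against PPP2R1A in a lentiviral vector, selected as a stable population. The guide is a single one, so an effect of PPP2R1A and an effect of this guide or of the lentiviral selection cannot be told apart. The labels number the libraries 1 to 3 in each group, and do not say whether the libraries of a group came from separate cultures. The library names of both groups also carry the numbers 8, 15 and 22, in the order 1 to 3. The labels do not say what these stand for. The study describes its replicates as independent, with collection spread over weeks and a higher passage for the third knockdown sample, but the sources do not tie each number to a week. Spread between such libraries, which may be technical, is what the p-values measure, and passage or week cannot be told apart from the library number.

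Collagens are extracellular matrix proteins in which 3 chains wind into a triple helix, either 3 copies of one chain or a fixed mixture of different chains. The fibrillar types I, II, III, V and XI build fibrils, type IV builds the sheet of the basement membrane, type VI builds beaded filaments next to cells, and transmembrane types such as XVII anchor cells to the matrix. Chains are hydroxylated and glycosylated in the endoplasmic reticulum, folded with dedicated chaperones, exported in large carriers, trimmed, cross-linked, bound by receptors and degraded by collagenases. In PDAC most of the collagen of the stroma is made by fibroblasts, and tumor cells add chains of their own.

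The promoter windows shown here are those of the 5 genes that rose or fell in knockdown libraries 1 and 2 and have an entry in the RefSeq-derived table (GRCh38.p14), together with COL4A1, whose start lies head to head with that of COL4A2. They run from 250 bases before to 50 bases after the annotated start, 5′ to 3′ on the strand of the gene, and 32 of the 44 members had an entry. Capitals mark the TATA box (TATAAA), the CCAAT box and the GC box (GGGCGG) on either strand, and adjacent matches can share bases. Over all 35116 windows of this length, 11.5% hold a TATA box, 34.6% a CCAAT box and 45% a GC box. A match is a run of letters and says nothing about binding.
COL17A1, rose, chr10:104085831-104086130, minus strand: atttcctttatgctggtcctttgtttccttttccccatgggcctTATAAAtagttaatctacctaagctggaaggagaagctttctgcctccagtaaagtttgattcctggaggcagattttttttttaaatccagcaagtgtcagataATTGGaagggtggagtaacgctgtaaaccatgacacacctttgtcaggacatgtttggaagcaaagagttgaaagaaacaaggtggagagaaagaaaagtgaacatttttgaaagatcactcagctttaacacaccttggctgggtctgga
COL18A1, rose, chr21:45404915-45405214, plus strand: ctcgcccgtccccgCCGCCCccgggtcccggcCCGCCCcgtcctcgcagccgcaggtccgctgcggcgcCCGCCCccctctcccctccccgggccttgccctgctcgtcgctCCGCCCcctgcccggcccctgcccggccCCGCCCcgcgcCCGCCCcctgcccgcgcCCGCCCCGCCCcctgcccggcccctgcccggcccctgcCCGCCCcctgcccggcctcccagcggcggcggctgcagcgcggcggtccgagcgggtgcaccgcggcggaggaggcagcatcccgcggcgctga
COL26A1, rose, chr7:101362625-101362924, plus strand: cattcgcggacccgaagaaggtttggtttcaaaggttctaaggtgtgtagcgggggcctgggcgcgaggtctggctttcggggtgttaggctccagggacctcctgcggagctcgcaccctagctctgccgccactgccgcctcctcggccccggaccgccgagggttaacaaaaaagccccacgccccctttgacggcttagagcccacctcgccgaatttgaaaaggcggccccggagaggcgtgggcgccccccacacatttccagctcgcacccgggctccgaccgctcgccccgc
COL5A3, fell, chr19:10010455-10010754, minus strand: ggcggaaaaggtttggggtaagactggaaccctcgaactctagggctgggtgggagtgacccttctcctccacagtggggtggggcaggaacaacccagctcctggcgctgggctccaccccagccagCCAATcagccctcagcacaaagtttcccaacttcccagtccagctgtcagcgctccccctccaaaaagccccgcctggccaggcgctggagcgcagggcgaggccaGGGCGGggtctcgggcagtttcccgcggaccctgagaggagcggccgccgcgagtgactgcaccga
COL6A3, fell, chr2:237414115-237414414, minus strand: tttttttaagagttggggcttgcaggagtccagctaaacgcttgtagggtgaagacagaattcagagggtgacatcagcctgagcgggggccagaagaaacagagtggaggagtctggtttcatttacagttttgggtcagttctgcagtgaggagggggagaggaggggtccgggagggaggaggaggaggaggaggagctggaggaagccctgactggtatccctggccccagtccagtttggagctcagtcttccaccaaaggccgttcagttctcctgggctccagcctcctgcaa
COL4A1, beside COL4A2, chr13:110307108-110307407, minus strand: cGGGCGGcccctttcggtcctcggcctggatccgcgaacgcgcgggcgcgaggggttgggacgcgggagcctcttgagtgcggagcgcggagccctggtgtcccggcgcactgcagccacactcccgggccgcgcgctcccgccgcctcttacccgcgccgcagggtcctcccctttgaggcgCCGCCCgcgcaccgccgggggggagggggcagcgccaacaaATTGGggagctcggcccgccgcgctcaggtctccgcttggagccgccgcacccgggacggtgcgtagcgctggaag

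The windows differ widely in composition. The COL18A1 window had 46 CpG dinucleotides, a GC content of 86.7% and 9 matches to the GC box. By contrast, the COL17A1 window had 1 CpG, a GC content of 40.7%, and 1 match each to the TATA box and the CCAAT box. COL6A3 had 4 CpG and no match to any of the motifs, COL5A3 had 17 CpG, COL26A1 29 and COL4A1 45, beside a median of 14 over all windows (quartiles 4 and 28) and of 22 over the 32 members. Among the genes shown, neither those that rose nor those that fell shared one kind of window. COL3A1, which rose, and COL1A2, which fell, had no entry and are not covered. The COL4A1 and COL4A2 starts lie 127 bases apart on opposite strands, and 226 bases of their windows are the same DNA.

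The libraries held between 28499214 and 45040033 counts. PPP2R1A, the targeted gene, stood at 590, 624 and 648 CPM (counts scaled to the library's effective size by TMM) in controls 1, 2 and 3 and at 143, 143 and 545 CPM in knockdowns 1, 2 and 3. The library labelled knockdown 3 was thus near the controls in the gene that defines its label, and it did not enter the study's own analysis. The main comparison is therefore that of knockdown 1 and 2 with control 1 and 2 (2 against 2), where PPP2R1A fell by 2.09 on the log2 scale (SE 0.0851, adjusted p = 0.0107). Control 3 stood apart from controls 1 and 2 in several collagen genes, and the collagen results are given with their values in that library. Of the 8 markers listed for a mesenchymal PDAC line, VIM was at 3743 to 10616 CPM and ZEB1 at 34.5 to 54.1 CPM, while the epithelial genes EPCAM and CDH1 were at 0.128 CPM or less and GATA6 at 1.26 CPM or less. The epithelial keratins were present in every library, with KRT8 at 738 to 5673 CPM, KRT18 at 554 to 3610 CPM and KRT19 at 11.6 to 77.6 CPM. Of 8 fibroblast markers only COL3A1, itself a collagen chain, had enough counts to be tested, and LUM, POSTN and FAP were at 0 throughout.

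Of the 44 members, 11 had no count in any library, which are COL4A5, COL4A6, COL6A5, COL14A1, COL15A1, COL16A1, COL19A1, COL21A1, COL22A1, COL25A1 and COL28A1. A further 13 had counts but stayed under 1 CPM everywhere, with at most 25 counts in a library, namely COL2A1, COL4A3, COL4A4, COL6A6, COL8A1, COL8A2, COL9A1, COL9A2, COL9A3, COL11A1, COL12A1, COL23A1 and COL24A1. The remaining 20 reached 1 CPM in at least 1 library, and 19 of these passed edgeR's filter on low counts and were tested. Collagen counts summed to 45248, 42655 and 79478 in the controls and to 67776, 79870 and 66593 in the knockdowns, or 0.146% to 0.229% of all counts of a library. Control 3 had the highest of these shares.

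**Figure D1:**
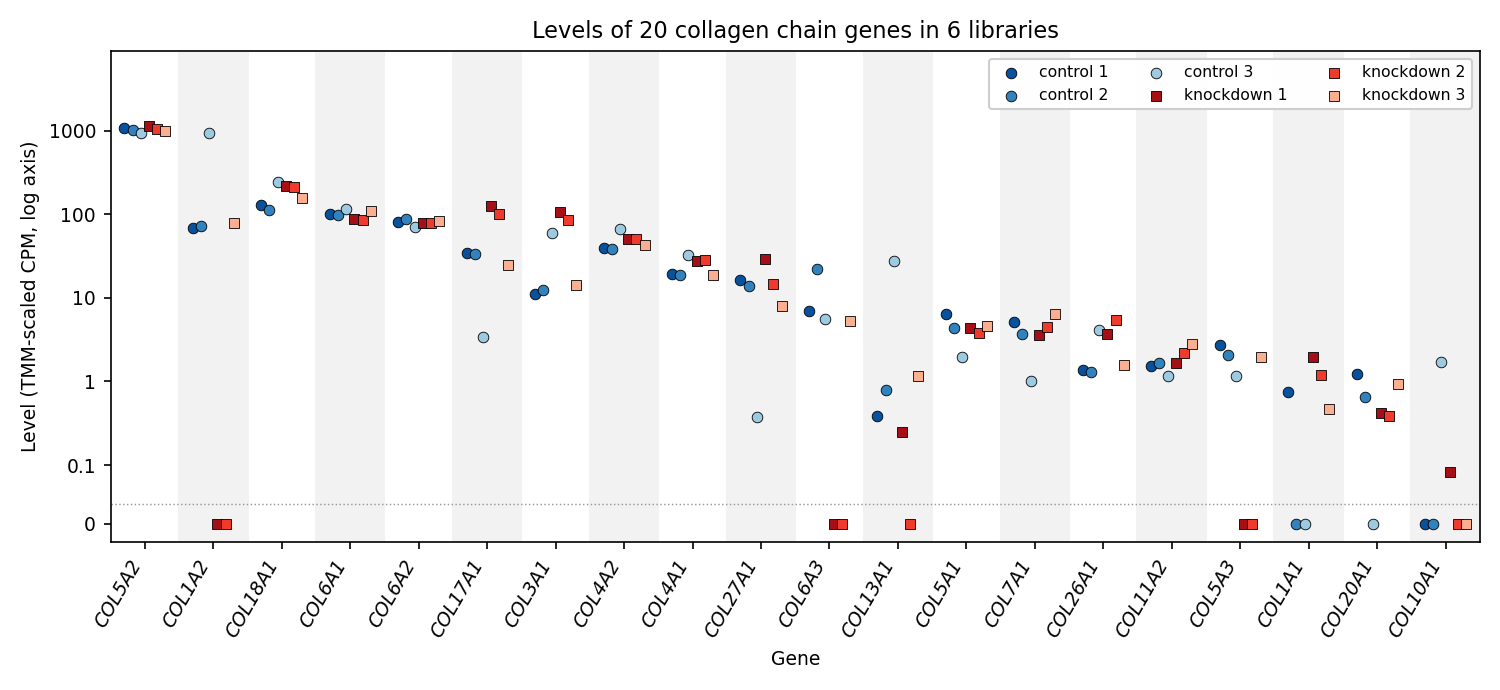
Level of the 20 collagen chain genes that reach 1 CPM in at least 1 library (x axis, ordered by mean level) in TMM-scaled CPM (y axis, log scale, with values of 0 drawn on the line marked 0), with 1 point for each library, circles for controls and squares for knockdowns. COL5A2 leads in 5 of the 6 libraries, COL1A2 is at 931 CPM in control 3 and at 0 in knockdowns 1 and 2, and all other points lie between 0 and 240 CPM.

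COL5A2, a chain of the fibrillar type V collagen that helps to set the width of type I fibrils, was the leading collagen transcript. Per kilobase of transcript its level was 147 ± 5.15 CPM per kb in controls 1 and 2 (SD, n = 2). COL6A2 (24.4 ± 1.34) and COL6A1 (23.4 ± 0.55) came next on this scale and their values overlapped. COL18A1 (20.3 ± 2.20) and COL1A2 (12.9 ± 0.549) followed, each apart from its neighbours in the order. COL17A1 (5.99 ± 0.0597) and COL4A2 (5.96 ± 0.0637) were not separated, and COL4A1 was at 2.90 ± 0.0698 CPM per kb. COL5A2 alone made up 65.96% to 66.90% of all collagen counts in controls 1 and 2 and 60.57% to 60.62% in knockdowns 1 and 2, whereas in control 3 it made up 37.1%, beside 37.4% for COL1A2.

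In knockdowns 1 and 2, 4 of the 19 tested collagen genes rose and 3 fell, and 12 did not pass an adjusted p of 0.05 (edgeR's quasi-likelihood test). Over all 15596 genes tested, 7.15% rose and 6.41% fell, or 13.6% in either direction. The genes that rose were COL3A1, COL17A1, COL18A1 and COL26A1, and those that fell were COL1A2, COL5A3 and COL6A3. The median log2 fold change of the 19 was 0.05, beside 0.01 over all genes, so there was no common direction. At an unadjusted p under 0.05 stood 10 of the 19, beside 5128 of all 15596 genes. With the replicate number as a block, 0 of the 19 were called higher and 0 lower (9 at an unadjusted p under 0.05), and 0 genes of the whole table. Leaving out any 1 of the 4 libraries left 0 of the 19 past the threshold, as it left 0 genes of the whole table, with 9 or 10 members and 3377 to 4797 genes at an unadjusted p under 0.05.

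**Figure D2:**
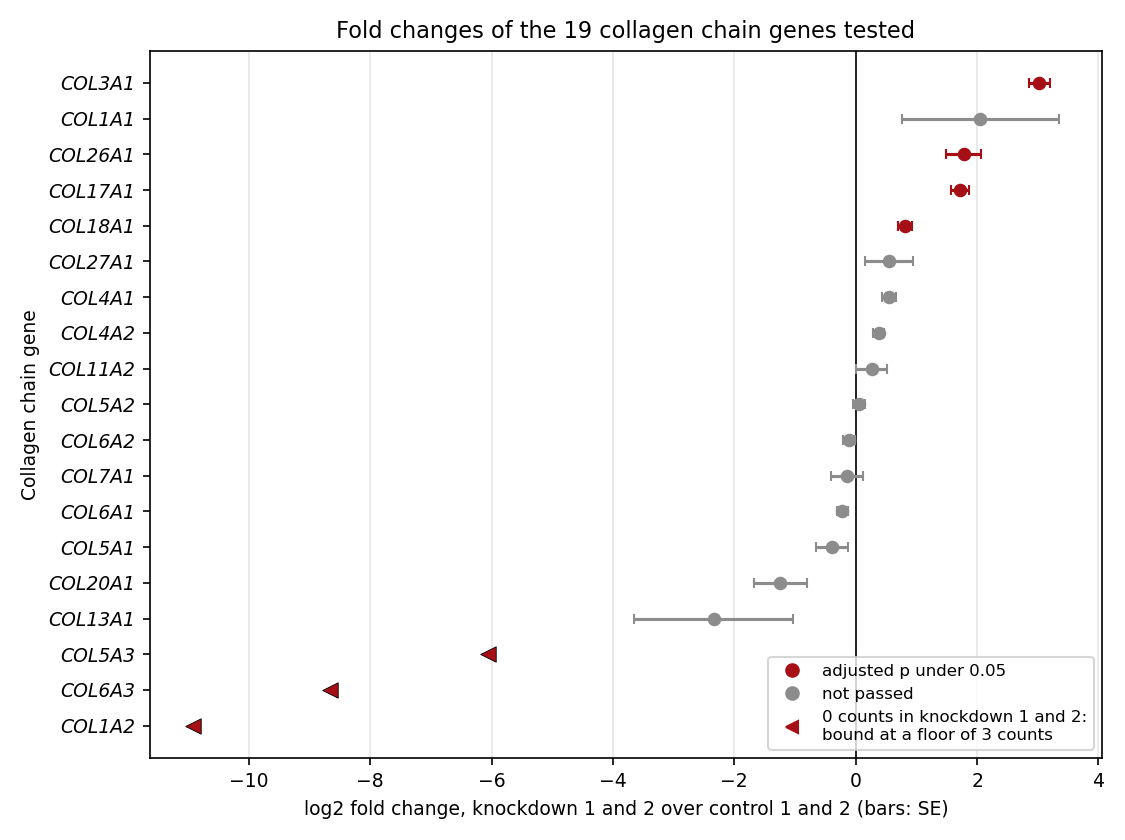
Log2 fold change of the 19 tested collagen chain genes (y axis) in knockdowns 1 and 2 over controls 1 and 2 (x axis), with bars of 1 SE, red where the adjusted p is under 0.05 and grey where it is not. Triangles mark the 3 genes with 0 counts in both knockdowns, drawn at the smallest fold that a floor of 3 counts allows; the highest value is that of COL3A1 at 3.03.

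COL1A2, which encodes the second chain of type I collagen, gave the most extreme values. It had 1924 and 1996 counts in controls 1 and 2, 29746 in control 3, 0 in knockdowns 1 and 2 and 3388 in the library labelled knockdown 3. In TMM-scaled CPM these are 67.7, 71.9, 931, 0, 0 and 79.4. The groups did not overlap, and COL1A2 in knockdowns 1 and 2 was at least 1933-fold lower than in controls 1 and 2 (adjusted p = 0.0107), taking a floor of 3 counts over the group, which covers counting error only. Against the library labelled knockdown 3 it was at least 2200-fold lower. In bulk RNA, fewer cells that express a gene and less RNA per cell cannot be told apart. Within the controls COL1A2 was 13.3-fold higher in control 3 than in controls 1 and 2 (log2 difference 3.74, SE 0.115, adjusted p = 0.0330), a test in which the single library is assumed to vary like the others.

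COL1A1, the first chain of type I collagen, was nearly silent. Its counts were 21, 0 and 0 in the controls and 70, 56 and 20 in the knockdowns, or 0.739, 0, 0, 1.93, 1.19 and 0.469 CPM. Knockdowns 1 and 2 were above all 3 controls, but the log2 fold change of 2.06 (SE 1.29) did not pass the test (adjusted p = 0.352). Per kilobase, COL1A2 was 99.1% to 100% of the type I transcripts in the 3 controls and in the library labelled knockdown 3, and COL1A1 was all that was counted in knockdowns 1 and 2.

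COL3A1, the only chain of type III collagen, which co-assembles with type I in tissues, rose most among the tested collagens. It was at 11.1 and 12.3 CPM in controls 1 and 2 and at 107 and 84.9 CPM in knockdowns 1 and 2, with 59.1 CPM in control 3 and 14.2 CPM in the library labelled knockdown 3. Both knockdowns lay above all 3 controls. The mean was 11.7 ± 0.849 CPM in controls 1 and 2 and 95.8 ± 15.5 CPM in knockdowns 1 and 2 (SD, n = 2 each), which is 8.20-fold (log2 fold change 3.03, SE 0.175, adjusted p = 0.0120). Control 3 was 5.06-fold above the other controls (log2 difference 2.34, adjusted p = 0.0394). COL1A2 and COL3A1 thus moved the same way in control 3 and opposite ways in knockdowns 1 and 2.

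The type V chains behaved differently from each other. COL5A2 was at 1065, 1014 and 923 CPM in the controls and at 1135, 1031 and 996 CPM in the knockdowns, and its ranges overlapped. Its log2 fold change in knockdowns 1 and 2 was 0.05 with an SE of 0.0939 (adjusted p = 0.749). COL5A3, a minor chain of the type, was counted 77, 58 and 37 times in the controls, 0 and 0 times in knockdowns 1 and 2, and 84 in the library labelled knockdown 3. It was at least 66.6-fold lower in knockdowns 1 and 2 than in controls 1 and 2 (adjusted p = 0.0220), and 1.16 to 2.71 CPM wherever it was counted. COL5A1, at 6.33, 4.36, 1.97, 4.39, 3.84 and 4.64 CPM in the same order of libraries, did not pass (log2 fold change -0.38, SE 0.266, adjusted p = 0.394). COL5A2 accounted for 99.2% to 99.7% of type V transcripts per kilobase in every library.

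COL3A1 and COL5A2 are neighbours on chromosome 2. In the order of gene midpoints among rows with counts, only the MIR3606 row stands between them. The ratio of their counts was 0.0104 and 0.0121 in controls 1 and 2, 0.0640 in control 3, 0.0941 and 0.0823 in knockdowns 1 and 2, and 0.0143 in the library labelled knockdown 3. COL3A1 rose while its neighbour COL5A2 did not pass the test.

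Of the other fibrillar genes, COL27A1 was at 16.3, 13.8 and 0.375 CPM in the controls and at 29.5, 14.8 and 8.06 CPM in the knockdowns. Knockdowns 1 and 2 did not move together, and the log2 fold change of 0.55 (SE 0.390) missed the threshold (adjusted p = 0.404). In control 3 it was 40.1-fold below controls 1 and 2 (adjusted p = 0.0549). COL11A2, at 1.55, 1.66 and 1.16 CPM in the controls and 1.66, 2.22 and 2.79 CPM in the knockdowns, did not pass either (log2 fold change 0.27, SE 0.256, adjusted p = 0.536).

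**Figure D3:**
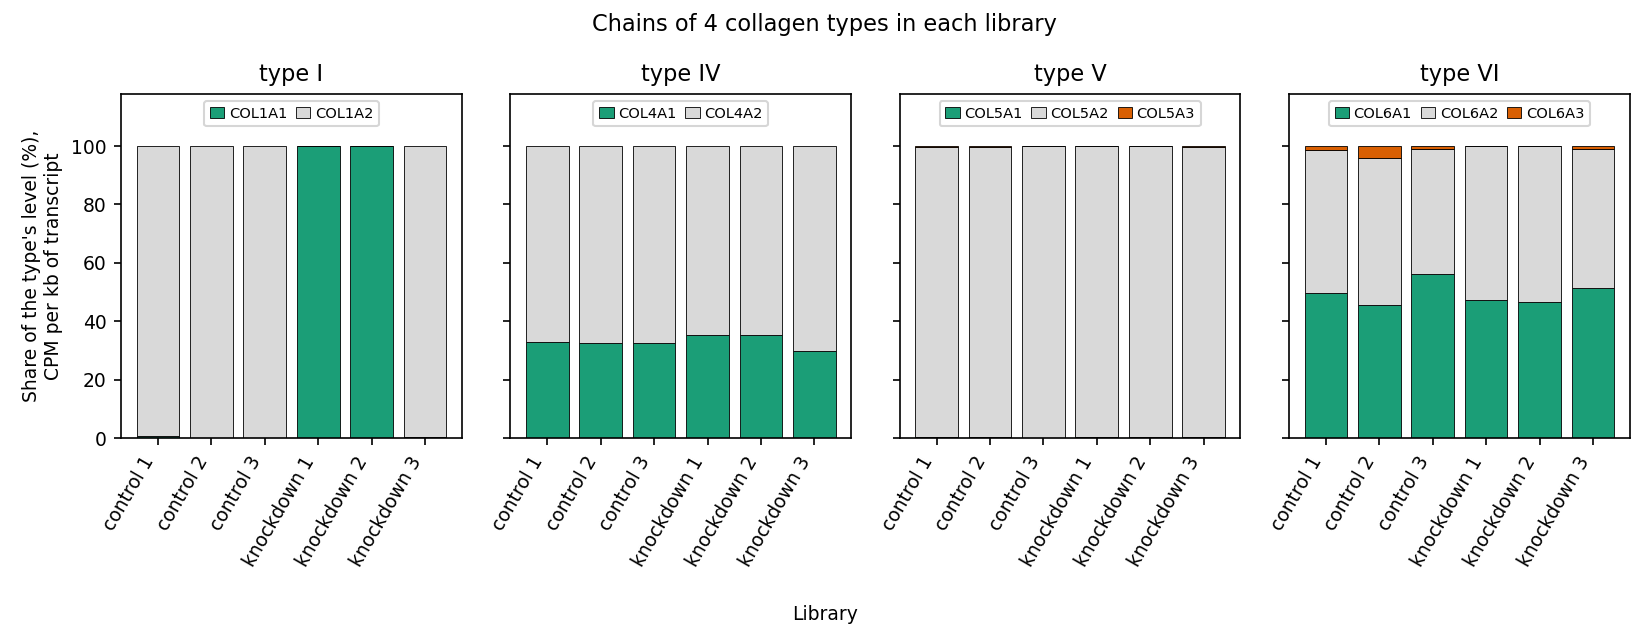
Share of the chains within collagen types I, IV, V and VI (y axis, percent of the type's summed CPM per kilobase of transcript) in each of the 6 libraries (x axis). COL1A2 fills type I except in knockdowns 1 and 2, COL4A1 holds 30.0% to 35.4% of type IV, COL5A2 holds over 99% of type V, and COL6A3 holds at most 4.12% of type VI and none in knockdowns 1 and 2.

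The basement membrane chains COL4A1 and COL4A2, which assemble together into the most widespread type IV collagen, kept close to one another. COL4A1 was at 19.5, 18.8 and 32.7 CPM in the controls and at 27.9, 28.5 and 18.8 CPM in the knockdowns. COL4A2 was at 39.0, 38.4 and 66.3 CPM in the controls and at 50.03, 51.1 and 43.1 CPM in the knockdowns. Both genes were higher in knockdowns 1 and 2 than in controls 1 and 2, and higher still in control 3, so that the knockdown values lay inside the range of the controls. The log2 fold changes of 0.55 (SE 0.122) and 0.38 (SE 0.0935) did not pass (adjusted p = 0.0648 for COL4A1 and 0.0791 for COL4A2). The ratio of their counts stayed between 0.436 and 0.558. This is the pair whose windows share DNA in the COL4A1 sequence printed above.

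Type VI collagen is built from COL6A1, COL6A2 and usually COL6A3. COL6A3 fell to 0 counts in knockdowns 1 and 2, from 199, 620 and 177 counts in the controls, while the library labelled knockdown 3 had 226. It was at least 404-fold lower in knockdowns 1 and 2 than in controls 1 and 2 (adjusted p = 0.0399). Controls 1 and 2 themselves differed, at 7.002 and 22.3 CPM, a spread that the bound does not cover. COL6A1 was at 100.8, 97.5 and 115 CPM in the controls and at 86.6, 84.5 and 110 CPM in the knockdowns. The values of knockdowns 1 and 2 were below all 3 controls, yet the log2 fold change of -0.22 (SE 0.0859) did not pass (adjusted p = 0.175). COL6A2, at 81.2, 87.8 and 71.1 CPM in the controls and 79.0, 78.8 and 83.2 CPM in the knockdowns, overlapped between the groups (log2 fold change -0.11, SE 0.0946, adjusted p = 0.502, and 0.031 when scaled by library size only). COL6A1 and COL6A2 stand side by side on chromosome 21, and the ratio of their counts ran from 1.07 to 1.61, with the top value in control 3. COL6A3, on chromosome 2, made up 1.07% to 4.12% of type VI transcripts per kilobase in the controls.

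Of the transmembrane collagens, COL17A1 rose. It encodes a hemidesmosome protein (BP180) that fastens epithelial cells to the basement membrane. Its levels were 34.3 and 33.9 CPM in controls 1 and 2, 125 and 100.2 CPM in knockdowns 1 and 2, 3.38 CPM in control 3 and 24.4 CPM in the library labelled knockdown 3. Both knockdowns were above all 3 controls. The mean rose from 34.1 ± 0.339 to 112 ± 17.2 CPM (SD, n = 2 each), which is 3.30-fold (log2 fold change 1.71, SE 0.149, adjusted p = 0.0179). In control 3 COL17A1 was 10.1-fold lower than in controls 1 and 2 (log2 difference -3.33, adjusted p = 0.0330), the opposite direction to COL1A2 and COL3A1 in that library. COL13A1, a transmembrane collagen of adhesion sites, was at 0.387, 0.793 and 27.7 CPM in the controls and at 0.249, 0 and 1.15 CPM in the knockdowns. Its level in control 3 was 46.9-fold that of controls 1 and 2, which did not pass (adjusted p = 0.0998), and its change in knockdowns 1 and 2 did not pass (log2 fold change -2.34, SE 1.31, adjusted p = 0.304).

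COL18A1, the basement membrane collagen whose end fragment is endostatin, rose from 130 and 111 CPM in controls 1 and 2 to 215 and 210 CPM in knockdowns 1 and 2. This is 1.76-fold (log2 fold change 0.81, SE 0.111, adjusted p = 0.0308). Control 3 was at 240 CPM, above both knockdowns, and the library labelled knockdown 3 was at 158 CPM. COL26A1 rose from 1.37 and 1.30 CPM to 3.73 and 5.498 CPM, or 3.46-fold (log2 fold change 1.78, SE 0.285, adjusted p = 0.0379), on 36 to 258 counts. Control 3 had 4.07 CPM, between the knockdown values, and the library labelled knockdown 3 had 1.57 CPM. Set against all 3 controls, both knockdown values of COL18A1 lay within the control range, and for COL26A1 knockdown 1 lay within it and knockdown 2 above it. Measured against the 100 nearest genes of the same chromosome rather than against all genes, neither passed the threshold (adjusted p = 0.0761 for COL18A1 and 0.0537 for COL26A1).

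The remaining genes at or above 1 CPM did not pass. COL7A1, the anchoring fibril collagen of skin and mucosa, was at 5.17, 3.71 and 1.00 CPM in the controls and at 3.62, 4.50 and 6.49 CPM in the knockdowns (log2 fold change -0.14, SE 0.264, adjusted p = 0.765). COL20A1, a fibril-associated collagen, was at 1.23, 0.648 and 0 CPM in the controls and 0.414, 0.384 and 0.937 CPM in the knockdowns (log2 fold change -1.24, SE 0.432, adjusted p = 0.146). COL10A1, a short-chain collagen of growth plate cartilage, had 55 counts in control 3, 3 in knockdown 1 and 0 in the other 4 libraries, and was not tested.

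Across all 6 libraries under their labels, no collagen gene passed (edgeR, 0 of 19, and 0 at an unadjusted p under 0.05). Of the 15386 genes tested, 1 did (0.0065%), with 1267 at an unadjusted p under 0.05. The adjusted p of the collagen genes ran from 0.581 to 0.996. The library labelled knockdown 3 decides this count. With it left out, so that 3 controls stood against knockdowns 1 and 2, 0 collagen genes rose and 2 fell, COL5A3 (adjusted p = 0.0327) and COL6A3 (adjusted p = 0.0456). Of all 15922 genes tested there, 363 rose and 341 fell. COL1A2, still at 0 in the knockdowns, was at an adjusted p of 0.0878 in that fit.

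Counted without a test, knockdowns 1 and 2 were both above all 3 controls in 4 of the 19 genes (COL1A1, COL3A1, COL17A1 and, by a narrow margin, COL11A2) and both below in 5 (COL1A2, COL5A3, COL6A1, COL6A3 and COL13A1). Over all genes tested the shares were 22.7% above and 22.2% below, or 44.9% in all, and the collagen genes were close to that background.

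**Figure D4:**
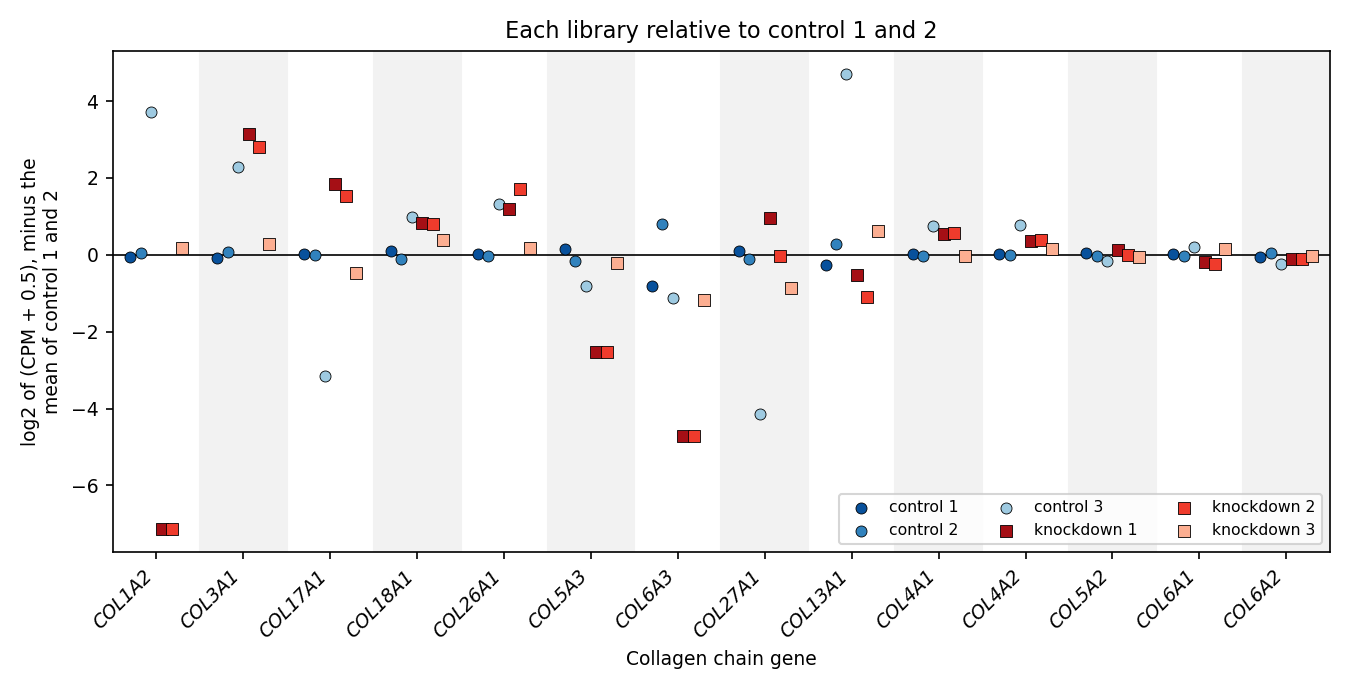
Log2 of CPM plus a pseudocount of 0.5 in each of the 6 libraries, minus the mean of controls 1 and 2 (y axis), for 14 collagen chain genes (x axis), with circles for controls and squares for knockdowns. Control 3 departs most from the other controls in COL1A2, COL3A1, COL17A1, COL27A1 and COL13A1, followed by COL26A1 (1.32), COL6A3 (-1.12) and COL18A1 (0.996). The library labelled knockdown 3 lies nearer to controls 1 and 2 than knockdowns 1 and 2 do in each of the 7 genes called.

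Control 3 was set against controls 1 and 2 in a fit of 4 cells. COL1A2 and COL3A1 were called higher and COL17A1 lower, that is 2 and 1 of 19, where 1.15% and 1.24% of all 15386 genes were called (2.39% in all). At an unadjusted p under 0.05 stood 12 of the 19, beside 3806 of all genes. Size alone was read on CPM plus a pseudocount of 0.5. On that scale 10 of the 19 were past 2-fold of controls 1 and 2 in control 3, beside 13% of all genes. They were COL1A2, COL3A1, COL13A1 and COL26A1 above and COL5A1, COL6A3, COL7A1, COL17A1, COL20A1 and COL27A1 below. In knockdowns 1 and 2 the count was 7 of 19, beside 13.5%. The pseudocount damps the ratios of low genes and kept some out of these counts. In plain CPM, COL5A3 was 2.07-fold lower in control 3. COL13A1 and COL20A1 were 4.74-fold and 2.36-fold lower in knockdowns 1 and 2. In the library labelled knockdown 3 the count was 1 of 19, COL6A3, beside 4.26%. That library had 0 collagen genes called against controls 1 and 2 (edgeR, 1 at an unadjusted p under 0.05), and 0 of all genes, with 734 at an unadjusted p under 0.05. In a test of whether the knockdown effect in the libraries numbered 3 differed from that in numbers 1 and 2, 2 collagen genes were called higher (COL1A2, COL5A3) and 2 lower (COL3A1, COL18A1), where 2.35% and 2.19% of all genes were (4.54% in all), and 0 and 0 with the replicate number as a block.

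The genes that make, carry, bind and break down collagen chains were read from 6 lists of 71 genes in all. Of the 54 tested in knockdowns 1 and 2 against controls 1 and 2, 6 rose and 9 fell, and 39 did not pass, beside the 7.15% and 6.41% of all genes. The median log2 fold change was -0.07. With the replicate number as a block, 0 of the 54 were called. The 15 called genes are taken by role below.

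Of the hydroxylases and glycosyltransferases, 13 of 14 genes were tested, 1 rose and 5 fell, with a median of -0.49. P4HA1 is a catalytic subunit of prolyl 4-hydroxylase, which stabilizes the helix. It was at 47.5, 53.9 and 59.5 CPM in the controls and at 19.9, 20.7 and 49.8 CPM in the knockdowns (log2 fold change -1.33, SE 0.126, adjusted p = 0.0198). P3H1 and CRTAP, which act in a complex on a proline of fibrillar chains, also fell (log2 fold changes -0.90 and -0.49, adjusted p = 0.0243 and 0.0398). PLOD3, a lysyl hydroxylase and glycosyltransferase, went from 253 and 282 to 165 and 179 CPM (log2 fold change -0.64, adjusted p = 0.0385). For PLOD2, the lysyl hydroxylase of telopeptides, the level was under 1 CPM in all libraries and at 0 in knockdowns 1 and 2, at least 16.8-fold below controls 1 and 2 (adjusted p = 0.0448), with 0 in control 3 as well. P3H2, which prefers basement membrane collagen, rose from 33.0 and 34.1 to 59.6 and 73.4 CPM (log2 fold change 0.98, adjusted p = 0.0323), against 12.9 CPM in control 3. The most abundant genes of the list did not pass, with P4HB at -0.35 (adjusted p = 0.205) and COLGALT1 at -0.05 (adjusted p = 0.734). P4HA2, a paralog of P4HA1 at 49.9 and 64.1 CPM in controls 1 and 2, did not pass either (log2 fold change -0.69, adjusted p = 0.0925). It was at 17.9 CPM in control 3.

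All 15 chaperone and export genes were tested, of which 0 rose and 2 fell, with a median of -0.29. SAR1A and SAR1B, the paralogous GTPases that start COPII carriers, were at 161 and 163 CPM and at 81.9 and 79.5 CPM in controls 1 and 2. In knockdowns 1 and 2 they were at 102 and 105 CPM and at 50.1 and 50.2 CPM (log2 fold changes -0.66 and -0.69, adjusted p = 0.0274 for each). Control 3 had 152 CPM of SAR1A and 53.8 CPM of SAR1B, so that only SAR1B came near the knockdown values there. CALR and HSPA5, the most abundant chaperones of the list, were at -0.35 (adjusted p = 0.151) and -0.29 (adjusted p = 0.144).

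Of 10 propeptide proteinases and enhancers 5 were tested, and PCOLCE2, an enhancer of procollagen trimming, rose from 5.10 and 6.70 to 13.2 and 13.7 CPM (log2 fold change 1.18, adjusted p = 0.0442), with 9.73 CPM in control 3. BMP1, the proteinase it helps, did not pass (log2 fold change 0.35, adjusted p = 0.461), and the median of the list was 1.18. Among 7 crosslinking enzymes 4 were tested, and TGM2, the tissue transglutaminase, fell from 545 and 629 to 125 and 147 CPM (log2 fold change -2.12, SE 0.139, adjusted p = 0.0133). It was at 1483 CPM in control 3 and 733 CPM in the library labelled knockdown 3. LOXL2, a lysyl oxidase, varied from 62.7 to 298 CPM between controls 1 and 2 and did not pass (adjusted p = 0.547), and the list's median was -0.79.

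Of the receptors, DDR2 fell. DDR2, a receptor tyrosine kinase that binds fibrillar collagen, was at 119, 110 and 111 CPM in the controls, at 2.02 and 1.79 CPM in knockdowns 1 and 2 and at 131 CPM in the library labelled knockdown 3. Knockdowns 1 and 2 were far from the controls, and control 3 was no exception here (log2 fold change -5.92, SE 0.141, adjusted p = 0.00758). ADGRG1, an adhesion receptor for type III collagen, rose from 20.9 and 21.65 to 41.1 and 39.8 CPM (log2 fold change 0.92, adjusted p = 0.0275). MRC2, which takes up collagen for lysosomal breakdown, rose from 46.6 and 41.6 to 94.5 and 75.4 CPM (log2 fold change 0.94, adjusted p = 0.0410). ITGB1, the shared beta chain of the collagen integrins, was at -0.31 (adjusted p = 0.186), and ADGRG6 at -0.48 (adjusted p = 0.395). Of 13 receptor genes 9 were tested, 2 rose and 1 fell, with a median of 0.47.

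Of 12 breakdown genes 8 were tested, 2 rose and 0 fell, with a median of 1.00. MMP1, the interstitial collagenase that cuts types I, II and III, was at 0.844, 0.648 and 0 CPM in the controls, at 189 and 360 CPM in knockdowns 1 and 2 and at 1.01 CPM in the library labelled knockdown 3 (log2 fold change 8.51, SE 0.5003, adjusted p = 0.0120). CTSL, a lysosomal cathepsin, rose from 167 and 195 to 390 and 539 CPM (log2 fold change 1.35, adjusted p = 0.0339), with 52.7 CPM in control 3. CTSB, a cathepsin at a like level, was at -0.04 (adjusted p = 0.812).

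**Figure D5:**
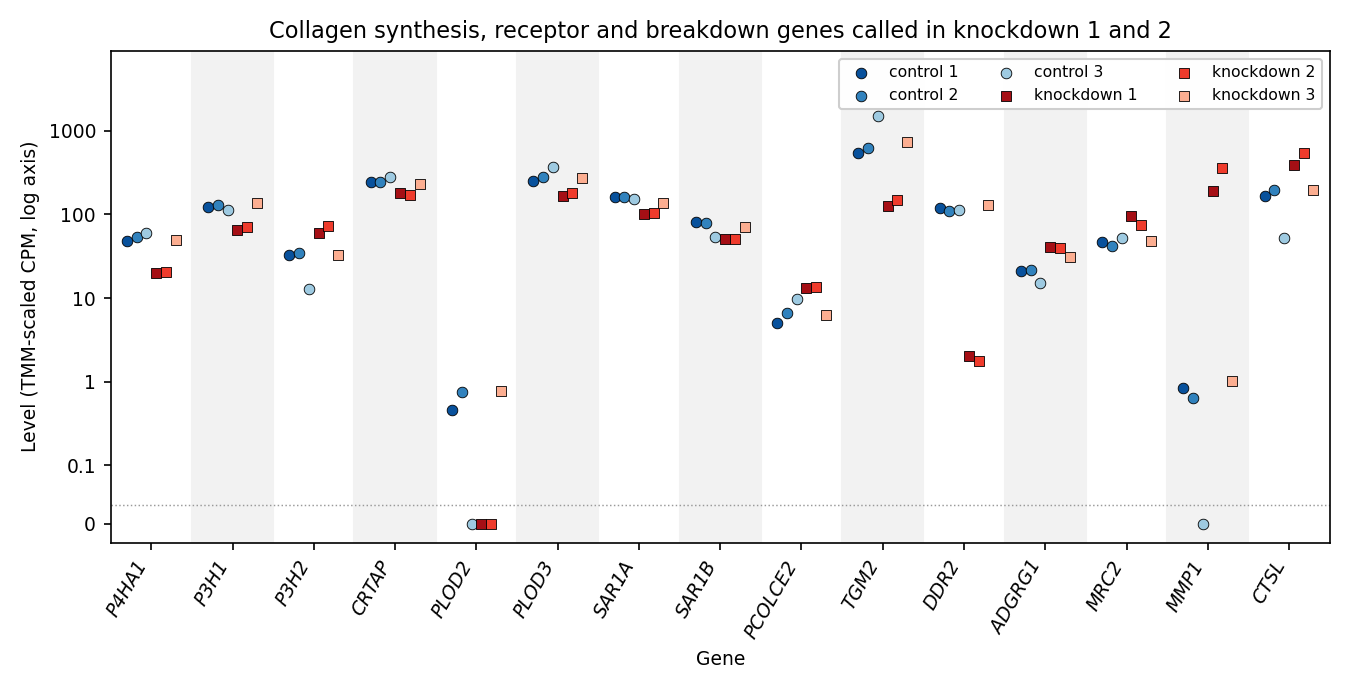
Level of the 15 called genes of collagen synthesis, export, trimming, crosslinking, binding and breakdown (x axis, in the order of the lists) in TMM-scaled CPM (y axis, log scale, with values of 0 drawn on the line marked 0), with 1 point for each library, circles for controls and squares for knockdowns. DDR2 is at 1.79 to 2.02 CPM in knockdowns 1 and 2 and at 110 CPM or above elsewhere, while MMP1 is at 189 and 360 CPM in them and near 1 CPM or lower elsewhere.

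Markers of epithelial and endothelial cells moved in the same comparison as the collagen genes. KRT8 and KRT18 rose (log2 fold changes 2.66 and 2.40, adjusted p = 0.0118 and 0.0133), KRT19 fell (-1.71, adjusted p = 0.0268), and 3 further markers of the mesenchymal line that were tested did not pass, VIM among them at -1.03 (adjusted p = 0.0570). Control 3 had 2417 CPM of KRT8 and 1565 CPM of KRT18, above controls 1 and 2 (772 and 900, 570 and 691 CPM) and below knockdowns 1 and 2. For KRT19 it had 77.6 CPM, above controls 1 and 2 (43.0 and 46.1 CPM). The 4 endothelial markers summed to 2.31 to 2.96 CPM in controls 1 and 2, 0 in control 3, 37.6 to 60.7 CPM in knockdowns 1 and 2 and 3.68 CPM in the library labelled knockdown 3. CDH5 carried nearly all of it, VWF rose from 0 counts (at least 27.3-fold), and PECAM1 and KDR were at 0 in every library. The 8 fibroblast markers summed to 11.3 to 14.4 CPM in controls 1 and 2 and the library labelled knockdown 3, 59.1 CPM in control 3 and 85.3 to 107 CPM in knockdowns 1 and 2, nearly all of it COL3A1. The part of these markers in the collagen results was not tested.

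Antisense rows lie beside several of these genes, and the sources used here do not state whether reads were counted by strand, so reads of a collagen gene and its antisense partner cannot be told apart. COL18A1-AS1 had at most 27 counts in a library, beside 3089 to 9841 for COL18A1, and COL4A2-AS1, COL4A2-AS2 and COL5A1-AS1 were at 0.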

How the data were processed

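The deposited counts are the authors' whole-number gene counts of 6 libraries (TruSeq RNA kit, total RNA). Reads were checked with FastQC, aligned with STAR and assembled with StringTie, per the submitters' processing notes. Their versions, the build, the annotation and the strand setting are not given in these sources. StringTie derives counts from read coverage, so they were taken as estimated read numbers. Of 42540 rows, 17321 were at 0 in all libraries, and 159 exact repeats of a gene's row (0.102% of a library's counts or less) were left out. Library totals were 28499214 to 45040033 counts, which sets the precision of low genes. Bounds cover counting error only, while the estimate of a row can differ widely within a group. HSP90B1, for example, had 717 and 14149 counts in controls 1 and 2 and 582 and 4867 in knockdowns 1 and 2.

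The whole table was fitted with edgeR 4.0.16 under R 4.3.3 (filterByExpr by group, TMM, quasi-likelihood F test), with Benjamini-Hochberg adjustment over all genes tested and a threshold of 0.05. Knockdowns 1 and 2 were tested against controls 1 and 2, all 6 libraries under their labels, and, in a fit of 4 cells, the libraries numbered 3, each assumed to vary like the others. An SE was taken as the absolute log2 fold change divided by the square root of its F statistic. CPM values are scaled by TMM. Values per kilobase use the length of the APPRIS principal transcript in GENCODE 29. Alternatives were RLE scaling, library size only, no filter on low counts, DESeq2 1.42.0, limma-voom (limma 3.58.1), summed rows of a symbol, a replicate block, each library left out in turn, 3 controls, and an offset over the 100 nearest genes. Tables were made with pandas 2.3.3 and numpy 2.4.6 in Python 3.11.15. The fits were also run on simulated counts with a low, even spread and no outlying library. The check there covered only the median log2 error of the changed genes, so it is no check of false calls in these data.

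The collagen genes, the 6 pathway lists and the marker lists were chosen with earlier results of these data known. Named with values are members at 1 CPM or more in at least 1 library, and members and pathway genes that were called. Up to 2 of the most abundant genes of each pathway list are named too, and P4HA2 and HSP90B1 beside them.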

Additional observations from a re-analysis of the deposited data

Results flagged for a closer look

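For 4 collagen genes the knockdown effect in the libraries numbered 3 differed from that in the libraries numbered 1 and 2, by a test of the difference itself (edgeR, 4 cells). Over all 15386 genes tested, 2.35% were called higher and 2.19% lower in this difference, or 4.54% in all, against 2 and 2 of the 19 collagen genes. The difference on the log2 scale was 10.73 for COL1A2 (adjusted p = 0.0187) and 10.19 for COL5A3 (adjusted p = 0.0436), both of which rest on 0 counts in knockdowns 1 and 2, so that these values depend on the prior count and are no bounds. It was -5.09 for COL3A1 (adjusted p = 0.0187) and -1.42 for COL18A1 (adjusted p = 0.0483). In the libraries numbered 3, COL3A1 stood at 59.1 CPM in the control and 14.2 CPM in the library labelled knockdown 3, and COL18A1 at 240 and 158 CPM, so that both genes were lower under the knockdown label there and higher in replicates 1 and 2. COL1A2 was at 931 and 79.4 CPM. COL5A3 was at 1.16 and 1.97 CPM. PPP2R1A stood at 648 and 545 CPM in this pair of libraries, and the part of that in the differences was not tested. All 4 genes were also called in knockdowns 1 and 2 against controls 1 and 2. The same libraries enter the test of the difference, so it is not a separate result. With any of the 4 libraries numbered 1 and 2 left out, 0 or 1 of the collagen genes was called higher and 0 lower.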

How the results depend on the processing

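Of 321 values of single collagen genes recomputed under an alternative, 238 kept their direction and their side of the threshold, 74 kept their direction and lost the call, 2 gained a call and 7 changed sign. The 321 include values of genes not called in the main fit, which had no call to lose. The 238 therefore do not measure how well the calls held, and all 74 losses fall on called genes. In knockdowns 1 and 2 against controls 1 and 2, RLE scaling, no filter on low counts, limma-voom and summed rows of a symbol gave 4 collagen genes higher and 3 lower, as reported, while library size only and DESeq2 gave 5 higher and 3 lower with COL4A1 added. Library size only moved the median log2 fold change of all genes from 0.01 to 0.15. The replicate number as a block left 0 collagen genes higher and 0 lower, and 0 of the 71 pathway genes higher and 0 lower, with 0 calls in the whole table and 5162 genes at an unadjusted p under 0.05. Deviations of libraries with equal numbers from their group means correlated at -0.0182 in replicate 1, -0.0324 in replicate 2 and -0.122 in replicate 3. Those means include control 3 and the library labelled knockdown 3, which stood apart from their groups. These values therefore cannot show whether equal numbers deviate together. The difference of replicate 1 and replicate 2, which takes in no library numbered 3, correlated at 0.0711 between the groups. The study spreads its collection over weeks without tying a number to a week, so whether the block marks a shared week was not settled. Leaving out each of the 4 libraries in turn gave 0 collagen genes higher and 0 lower, and 0 pathway genes in either direction, with fewer samples in the fit. With control 3 added, 0 collagen genes were higher and 2 lower, and 1 and 4 pathway genes. Of all 15922 genes tested in that fit, 363 were higher and 341 lower. Against the 100 nearest genes 2 collagen genes were higher, and 4 and 5 pathway genes were higher and lower. DESeq2 gave 10 pathway genes higher and no filter gave 6 lower.

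In the comparison of all 6 libraries, leaving out a library gave 0 to 2 collagen genes lower, the 2 without the library labelled knockdown 3, and 0 higher. For the difference between replicate 3 and replicates 1 and 2, DESeq2 gave 7 higher and 5 lower and limma-voom 3 and 3, library size only and no filter gave 1 lower (COL3A1), the block gave 0 and 0, and leaving out a library gave 0 to 1 higher and 0 lower. For control 3, DESeq2 gave 6 higher and 5 lower, and leaving out a library gave 0 in both directions. Under library size only 6 and 4 collagen genes lay above and below all 3 controls, and under RLE scaling 3 and 5.

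The genes that changed sign had not passed the test. COL5A2 ranged from -0.014 to 0.13 with a library left out and was -0.21 against the nearest genes, COL6A2 was 0.031 under library size only, COL7A1 ranged from -0.35 to 0.11 (0.01 without knockdown 1) and was 0.30 with control 3, and COL27A1 ranged from -0.028 to 0.97. The cause was not tested. With 36 to 258 counts, COL26A1 is the called gene with the fewest counts among those that rose.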
